A study of Homo sapiens with 8 samples.

Results

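Collagen hydroxylases and lysyl oxidases are the enzymes that modify collagen chains during their synthesis and after their secretion. The set described here has 8 genes, chosen by name as a list with earlier results of these data known: P4HA1, P4HA2, P3H1, PLOD1, PLOD2, PLOD3, LOX and LOXL2. All 8 were found by symbol among the 13546 genes of the count table. The measured RNA came from tumours that grew in nude mice injected with cells of MDA-MB-231, a human line established from triple-negative breast cancer. These were labelled CDK4WT (intact CDK4, 4 libraries) or CDK4KO (CDK4 knockout, 4 libraries), and both kinds were grown in the same RPMI medium with HEPES, sodium pyruvate and serum before injection. CDK4 is a cyclin D-dependent kinase that drives entry into S phase, and the title of the series concerns cytoskeletal homeostasis and actomyosin contractility. The labels do not say how CDK4 was disrupted, whether CDK4KO is 1 clone, how old the mice were or whether each tumour came from its own mouse. P-values therefore measure the spread between these libraries.

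Fibrillar collagen is stable only after many of its prolines are hydroxylated in the endoplasmic reticulum. P4HA1 and P4HA2 encode alternative catalytic subunits of prolyl 4-hydroxylase, and P3H1 is a prolyl 3-hydroxylase that acts in a complex with CRTAP and cyclophilin B. PLOD1, PLOD2 and PLOD3 encode lysyl hydroxylases, of which PLOD2 acts on the telopeptide lysines that later form stable crosslinks. LOX and LOXL2 are secreted copper-dependent amine oxidases that oxidise lysines and so start collagen crosslinking outside the cell. P4HA1, PLOD2 and LOX are known targets of hypoxia-inducible factor (HIF) and are called the hypoxia-induced members below. The others, P4HA2, P3H1, PLOD1, PLOD3 and LOXL2, are called paralogues, although hypoxic induction has also been described for P4HA2 and LOXL2.

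Upstream sequences are shown for the 3 hypoxia-induced members and for P4HA2, because the comparison between hypoxia-induced genes and paralogues turns on them. Each is the stretch of 250 bases before the RefSeq start (GRCh38.p14, minus strand), 5′ to 3′. The capitals mark matches to ACGTG or GCGTG, the letters of the HIF-binding core, on either strand (CACGT or CACGC when read on the opposite strand).
P4HA1 (chr10:73096867-73097116): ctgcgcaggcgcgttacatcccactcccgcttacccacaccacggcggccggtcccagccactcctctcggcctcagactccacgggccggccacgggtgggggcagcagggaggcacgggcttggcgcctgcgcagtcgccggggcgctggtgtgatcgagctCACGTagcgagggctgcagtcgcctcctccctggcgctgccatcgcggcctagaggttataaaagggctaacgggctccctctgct
PLOD2 (chr3:146161185-146161434): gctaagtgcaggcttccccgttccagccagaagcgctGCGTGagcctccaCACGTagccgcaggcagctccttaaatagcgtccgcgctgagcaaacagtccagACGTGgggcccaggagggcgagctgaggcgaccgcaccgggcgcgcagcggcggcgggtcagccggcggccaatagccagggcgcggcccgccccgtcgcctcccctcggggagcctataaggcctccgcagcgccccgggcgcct
LOX (chr5:122078260-122078509): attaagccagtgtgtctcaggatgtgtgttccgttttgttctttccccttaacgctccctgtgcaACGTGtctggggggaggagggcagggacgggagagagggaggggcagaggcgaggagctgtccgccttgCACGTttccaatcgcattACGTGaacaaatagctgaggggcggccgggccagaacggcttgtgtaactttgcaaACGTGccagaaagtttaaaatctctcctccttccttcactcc
P4HA2 (chr5:132227092-132227341): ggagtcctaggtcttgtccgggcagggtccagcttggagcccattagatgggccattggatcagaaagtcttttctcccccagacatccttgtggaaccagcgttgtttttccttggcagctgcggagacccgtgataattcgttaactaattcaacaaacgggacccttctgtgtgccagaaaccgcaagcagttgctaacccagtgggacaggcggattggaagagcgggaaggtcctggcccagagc

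P4HA1 held 1 match to ACGTG, 86 bases before the start. PLOD2 held 2 matches to ACGTG, at 200 and 146 bases, and 1 to GCGTG, at 213 bases. LOX held 4 matches to ACGTG, at 185, 116, 98 and 42 bases before the most upstream of its 3 starts in the table. P4HA2 and PLOD3 held 0 matches to either motif in this window, P3H1 held 1 and PLOD1 held 2 matches to GCGTG and none to ACGTG. The P4HA2 window lies well inside the gene's annotated span, 132191838 to 132295315 (GENCODE 29). Bases before its most upstream annotated start were therefore not searched. The windows of PLOD1, PLOD2 and PLOD3 also lie inside their annotated spans. For these genes the matches describe only the 1 start in the table. The windows of P4HA1, P3H1 and LOX lie partly inside their annotated spans, whose highest coordinates are 73096974, 42767084 and 122078360. The P4HA1 match and the LOX matches at 98 and 42 bases fall within those spans. Of all 35116 promoters in the same table, 18.5% held ACGTG, 32.2% GCGTG and 43.2% either of them. A match describes these letters and is not evidence of a bound site. Sequences were matched for 7 of the 8 genes, and none is given for LOXL2.

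The libraries held 27840883 to 33617977 counts, and the ranges of the 2 groups overlapped. CDK4 mRNA was at 107 to 116 CPM (counts scaled to library size with TMM factors) in CDK4WT and 111 to 134 CPM in CDK4KO (log2 fold change 0.12 ± 0.06, SE; edgeR adjusted p = 0.477), so the mRNA level is no check of the knockout. Log2 CPM profiles correlated with those of the own group at 0.992 to 0.995 in CDK4WT and at 0.985 to 0.989 in CDK4KO, lowest in CDK4KO replicates 1 and 4. VIM, CD44, EGFR, KRT18 and S100A4, markers of this cell line, were all measured, and ESR1 and PGR had no row analysed here. Of 14 fibroblast and stroma markers 9 were measured (DCN, LUM, PDGFRA, THY1 and MFAP5 had no row), with a summed level of 825 to 1247 CPM in CDK4WT and 721 to 1255 CPM in CDK4KO. COL1A1, COL3A1 and COL1A2, at CDK4WT means of 588, 209 and 197 CPM, made up most of this sum. They also belong to the collagen chains below. The other measured stroma markers had CDK4WT means of 2.57 to 24.8 CPM. Of 6 endothelial markers 5 were measured (CDH5 had no row), at a sum of 246 to 285 CPM in CDK4WT and 312 to 372 CPM in CDK4KO without overlap. ESAM and ROBO4 made up most of that sum, and PECAM1, TEK and KDR, at means of 2.64 to 11.8 CPM, overlapped between genotypes. All 5 had positive log2 fold changes, CDK4KO minus CDK4WT, and 0 passed the edgeR test over all genes. At an unadjusted edgeR p of 0.05, 3 of the 5 were higher, against 6.64% of all genes. Of 6 leukocyte markers 4 were measured (CD68 and ITGAM had no row), at 15.2 to 26.7 and 19.0 to 20.3 CPM. The part of these cells, or of mouse reads, in the results below was not tested, and in bulk tumour RNA fewer cells of a type and less RNA per cell cannot be told apart.

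None of the 8 genes passed the test between genotypes, and none of the 4 paralogue pairs passed a test of the difference between its members, with wide intervals. All 8 fitted log2 fold changes, CDK4KO minus CDK4WT, were negative, with a median of -0.25 against 0.004 over all genes tested, of which 48.8% were negative. LOXL2 had the most negative value of the set, -0.47, followed by LOX, PLOD2, P4HA1 and P4HA2 between -0.32 and -0.23, while PLOD1, P3H1 and PLOD3 lay between -0.13 and -0.03. By edgeR's quasi-likelihood test, adjusted by Benjamini-Hochberg across 13546 genes, 0 of 8 members had an adjusted p under 0.05, where 0.0591% of all genes did (8 genes). At an unadjusted p of 0.05, 5 of 8 members were lower and 0 higher, against 6.33% of all genes lower and 6.64% higher. DESeq2 and limma voom with library quality weights also called 0 members over all genes, against 2.33% and 2.1% of the genes tested. The libraries of the 2 genotypes overlapped in 8 of 8 members, while 7.68% of all genes had no overlap (3.81% lower and 3.87% higher in CDK4KO).

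**Figure D1:**
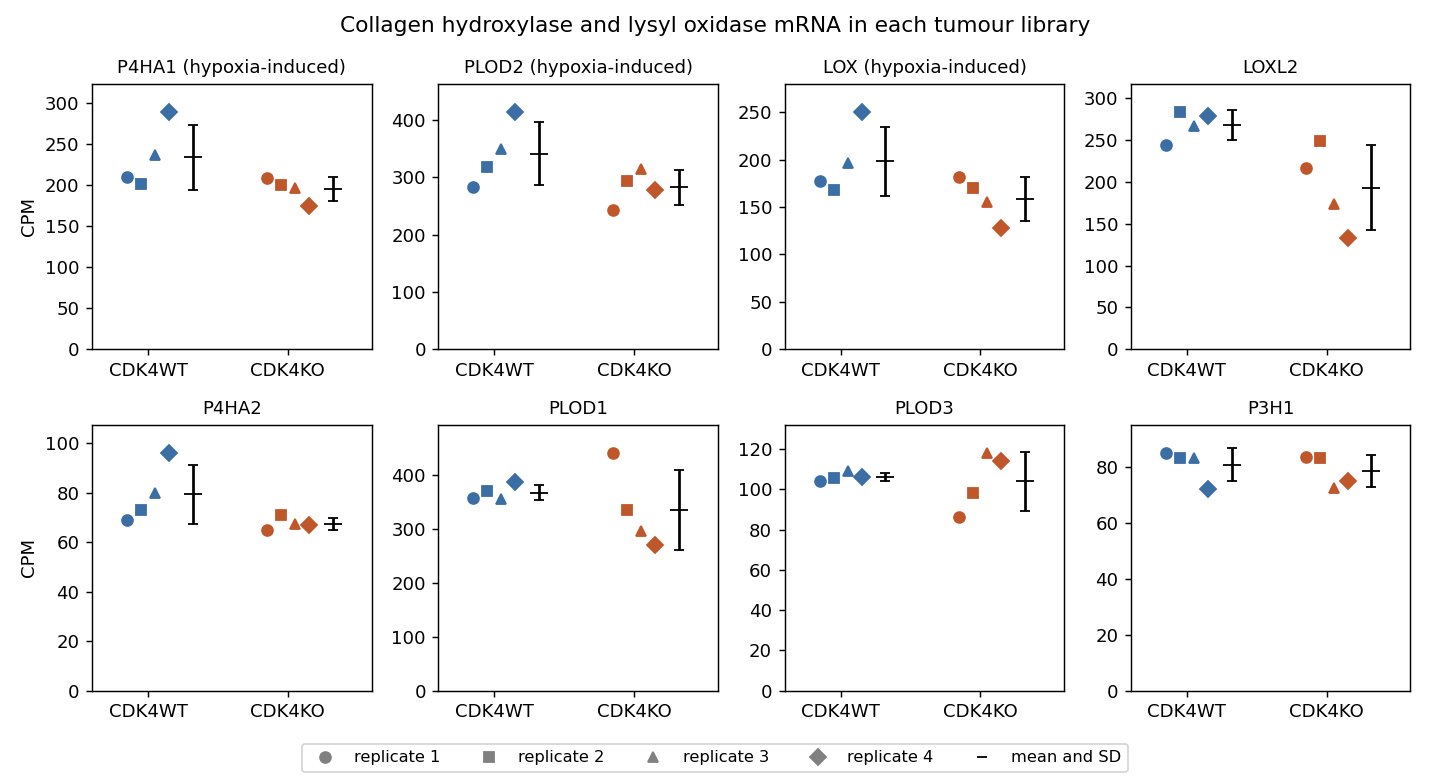
Level of each of the 8 genes in every library, in CPM on linear axes from 0 (each panel has its own scale), with symbols for the replicate number and a bar for the mean and SD of 4 libraries. CDK4WT replicate 4 is the highest library for P4HA1, PLOD2, LOX and P4HA2, and the CDK4WT and CDK4KO values overlap in every panel.

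Among the prolyl 4-hydroxylase subunits, P4HA1 (ENSG00000122884, chromosome 10, 73007217 to 73096974, hg38) had 210.0, 201, 238 and 289 CPM in CDK4WT replicates 1 to 4. In CDK4KO replicates 1 to 4 it had 209, 201, 197 and 175 CPM. CDK4WT replicates 3 and 4 were well above every CDK4KO library, while CDK4WT replicates 1 and 2 lay within 1 CPM of CDK4KO replicates 1 and 2. The means were 235 CPM ± 39.7 and 195 CPM ± 14.8 (SD, 4 libraries each; fitted log2 fold change -0.26 ± 0.11, SE; edgeR adjusted p = 0.340).

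P4HA2 (ENSG00000072682, chromosome 5, 132191838 to 132295315), the alternative catalytic subunit, had 68.9, 73.2, 79.8 and 96.0 CPM in CDK4WT and 65.1, 70.9, 67.4 and 66.9 CPM in CDK4KO. Its CDK4KO libraries were close together and only CDK4WT replicate 1 fell among them. The means were 79.5 CPM ± 11.9 and 67.6 CPM ± 2.42, and the log2 fold change of -0.23 ± 0.09 was close to that of P4HA1 (edgeR adjusted p = 0.321). P4HA1 exceeded P4HA2 by 1.56 ± 0.07 on the log2 CPM scale in CDK4WT and by 1.53 ± 0.12 in CDK4KO (SD, n = 4 each). This ratio moved by -0.03 (95% interval from inverting the exact permutation test, -0.22 to 0.225; exact two-sided permutation p = 0.714, 0.8 adjusted over the 4 pairs compared).

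P3H1 (ENSG00000117385, chromosome 1, 42746335 to 42767084), the prolyl 3-hydroxylase, had 84.7, 83.2, 82.9 and 71.8 CPM in CDK4WT and 83.6, 82.9, 72.4 and 74.98 CPM in CDK4KO. Here CDK4WT replicate 4, the highest library for P4HA1 and P4HA2, was the lowest of all 8. The log2 fold change was -0.04 ± 0.07 (95% interval -0.20 to 0.12; edgeR adjusted p = 0.855).

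The lysyl hydroxylase PLOD2 (ENSG00000152952, chromosome 3, 146069440 to 146163653) had 283, 319, 348 and 414 CPM in CDK4WT and 243, 294, 314 and 278 CPM in CDK4KO. CDK4WT replicates 2, 3 and 4 were above every CDK4KO library, and replicate 1 lay within the CDK4KO range. The means were 341 CPM ± 55.2 and 283 CPM ± 30.1 (SD, 4 libraries each; fitted log2 fold change -0.27 ± 0.11, SE; edgeR adjusted p = 0.354).

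PLOD1 (ENSG00000083444, chromosome 1, 11934205 to 11975538), a second lysyl hydroxylase, stood at 356, 370, 356 and 386 CPM in CDK4WT. CDK4KO replicate 1 was above all of these at 440 CPM, and CDK4KO replicates 2 to 4 were below all of them at 334, 295 and 271 CPM. The coefficient of variation was 3.92% in CDK4WT and 22.3% in CDK4KO, and the log2 fold change was -0.13 ± 0.13 (edgeR adjusted p = 0.702). With 1 library left out it ran from -0.29 without CDK4KO replicate 1 (edgeR adjusted p = 0.0921) to -0.04 without CDK4KO replicate 4 (edgeR adjusted p = 0.911). The fit without CDK4KO replicate 1 called 183 of all genes, against 8 in the main fit.

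PLOD3 (ENSG00000106397, chromosome 7, 101205977 to 101218420), which besides lysyl hydroxylation has collagen glycosyltransferase activity, had 104, 105, 109 and 106 CPM in CDK4WT and 86.3, 97.9, 118 and 114 CPM in CDK4KO. Its CDK4KO libraries lay on both sides of the CDK4WT range, and CDK4KO replicate 1 was lowest for PLOD3 and highest for PLOD1. The log2 fold change of PLOD3 was -0.03 ± 0.09 (95% interval -0.23 to 0.17; edgeR adjusted p = 0.922), and it was 0.05 without CDK4KO replicate 1.

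Within libraries, PLOD2 minus PLOD1 was -0.12 ± 0.19 in CDK4WT and -0.23 ± 0.43 in CDK4KO on the log2 CPM scale (SD, n = 4 each). The difference between genotypes was -0.11 (95% interval -0.95 to 0.42; exact permutation p = 0.8, also 0.8 adjusted over the 4 pairs), and it turned to 0.10 without CDK4KO replicate 1. PLOD2 minus PLOD3 was 1.67 ± 0.22 and 1.45 ± 0.13. That ratio differed by -0.22 (95% interval -0.67 to 0.135; exact permutation p = 0.114, adjusted 0.457). The shift of PLOD2 against PLOD3 was slightly larger than the SD of either group, but the libraries overlapped, the exact test did not pass for either PLOD2 ratio, and both intervals include shifts in either direction.

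LOX (ENSG00000113083, chromosome 5, 122063195 to 122078360), the founding lysyl oxidase, had 178, 168, 196 and 250.0 CPM in CDK4WT and 182, 170.4, 155 and 128 CPM in CDK4KO. CDK4WT replicates 3 and 4 were above every CDK4KO library, CDK4KO replicates 3 and 4 were below every CDK4WT library, and the remaining libraries overlapped. The means were 198 CPM ± 36.5 and 159 CPM ± 23.2 (SD, 4 libraries each; fitted log2 fold change -0.32 ± 0.14, SE; edgeR adjusted p = 0.358).

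LOXL2 (ENSG00000134013, chromosome 8, 23297189 to 23425328), a lysyl oxidase paralogue, had 243, 283, 266 and 278 CPM in CDK4WT and 216, 249, 174 and 132 CPM in CDK4KO. The groups overlapped through CDK4KO replicate 2 alone, which exceeded CDK4WT replicate 1. LOXL2 went from 268 CPM ± 17.7 to 193 CPM ± 50.7, a fitted change of -28.0% (log2 fold change -0.47 ± 0.17, SE; 95% interval unadjusted for the number of genes, -0.85 to -0.10; edgeR adjusted p = 0.278). With DESeq2 its adjusted p was 0.0843, and without CDK4KO replicate 4 its log2 fold change was -0.33.

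LOX minus LOXL2 was -0.45 ± 0.24 in CDK4WT and -0.25 ± 0.21 in CDK4KO on the log2 CPM scale. The pair thus moved by 0.20, with the paralogue LOXL2 and not the hypoxia-induced LOX carrying the lower fitted value, and the difference did not exceed the spread between libraries (95% interval -0.39 to 0.7; exact permutation p = 0.286, adjusted 0.571). For all 4 pairs, 4 libraries against 4 cannot give an exact p below 0.0286.

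**Figure D2:**
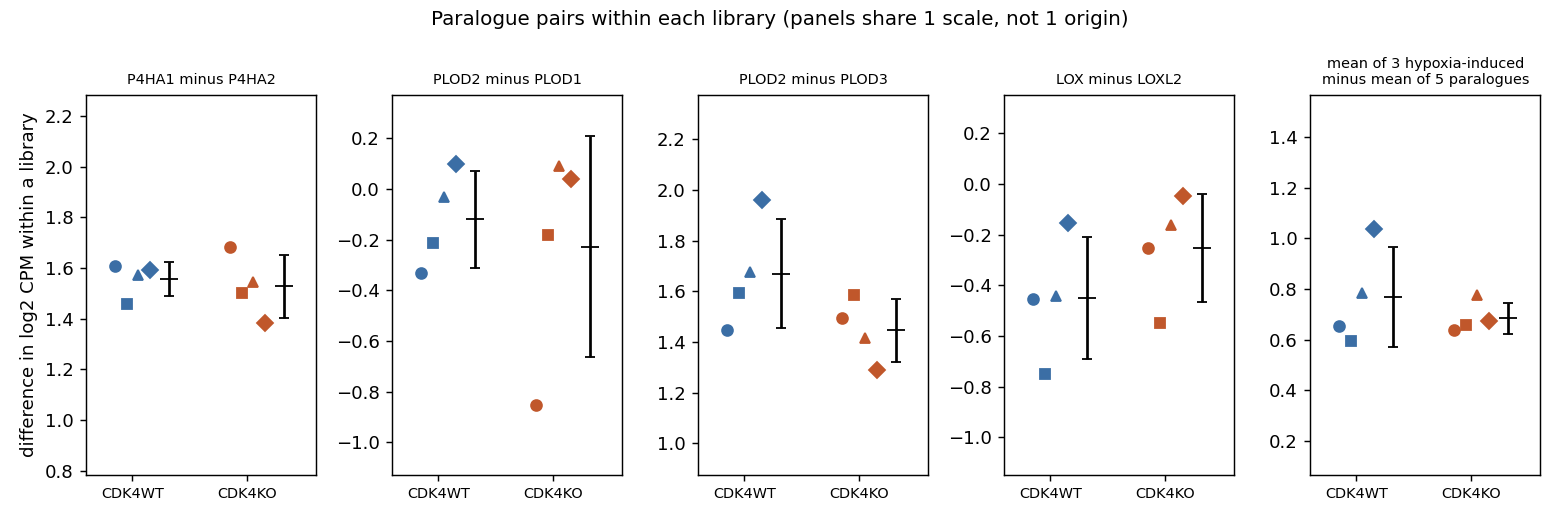
Difference in log2 CPM within each library for the 4 paralogue pairs and for the mean of the 3 hypoxia-induced members minus the mean of the 5 paralogues, with mean and SD of 4 libraries. Panels span the same range around different centres, and CDK4WT and CDK4KO overlap in all of them.

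The mean log2 fold change was -0.28 over the 3 hypoxia-induced members and -0.18 over the 5 paralogues, a difference of -0.10. In single libraries the mean log2 CPM of the hypoxia-induced members exceeded that of the paralogues by 0.65, 0.59, 0.79 and 1.04 in CDK4WT replicates 1 to 4 and by 0.64, 0.66, 0.78 and 0.67 in CDK4KO replicates 1 to 4. CDK4WT replicate 4 was above the other seven libraries, which covered 0.59 to 0.79 in both genotypes. Without it the difference between the 2 classes was -0.004. As a score over chosen genes this contrast was given no test.

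Counts at an unadjusted p of 0.05 depended on some single libraries. Without CDK4WT replicate 1, or without CDK4WT replicate 2, still 5 of 8 members were under that p. When CDK4WT replicate 3, CDK4WT replicate 4, CDK4KO replicate 3 or CDK4KO replicate 4 was left out, 1 of 8 members was under that value, without CDK4KO replicate 2 there were 3, and without CDK4KO replicate 1 there were 4. With CDK4KO replicates 1 and 4 both left out, which was added once the data had been seen, 2 members were under it. The share of all genes under that p was taken only in the main fit. A change in these counts therefore cannot be told from a change over all genes. With 1 library left out, 0 to 183 of all genes had an edgeR adjusted p under 0.05, against 8 in the main fit. Leaving out CDK4WT replicate 4 brought the log2 fold changes of P4HA1, P4HA2, PLOD2 and LOX to -0.15, -0.13, -0.17 and -0.19, and LOXL2 stood at -0.46. In each of the 8 fits with 1 library left out the sign stayed negative for 7 members, PLOD3 being the exception.

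**Figure D3:**
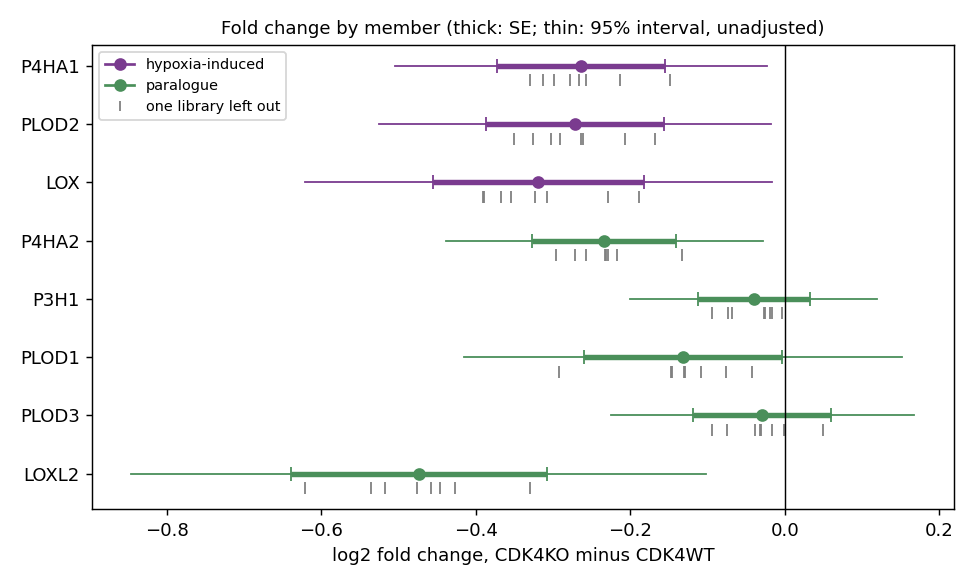
Log2 fold change of each gene, CDK4KO minus CDK4WT, with its SE (thick bar) and its 95% interval unadjusted for the number of genes (thin bar), and the value with each library left out (grey ticks). LOXL2, a paralogue, has the most negative value at -0.47, and P4HA2 at -0.23 lies beside P4HA1 at -0.26.

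Per kilobase of annotated exon (the union of all exons in GENCODE 29), P4HA1 and PLOD1 had the highest levels in CDK4WT, at 75.8 ± 12.8 and 69.0 ± 2.704 CPM per kilobase (SD, n = 4). LOXL2, PLOD2 and LOX followed at 46.9 ± 3.11, 44.6 ± 7.22 and 35.7 ± 6.58, then PLOD3 at 18.7 ± 0.37, P3H1 at 11.9 ± 0.88 and P4HA2 at 9.35 ± 1.40. P4HA1 and PLOD1, LOXL2 and PLOD2, PLOD2 and LOX, and P3H1 and P4HA2 were neighbours whose libraries overlapped. In CDK4KO the order was P4HA1 (63.2 ± 4.80), PLOD1 (63.0 ± 14.0), PLOD2 (37.0 ± 3.93), LOXL2 (33.8 ± 8.89), LOX (28.6 ± 4.18), PLOD3 (18.3 ± 2.57), P3H1 (11.6 ± 0.83) and P4HA2 (7.95 ± 0.28). There the libraries of P4HA1 and PLOD1, PLOD2 and LOXL2, and LOXL2 and LOX overlapped, and those of the other neighbours did not. The exon union of P4HA2 is long, at 8502 bases against 3093 for P4HA1, and a level per kilobase is too low where the tumour uses shorter transcripts. Exons of PLOD3 overlap those of ZNHIT1 on the opposite strand over 7.56% of their length, and those of LOX and SRFBP1 over 2.49%, so a part of these counts is uncertain if the counting did not use strand. LOXL2 exons share 2.10% of their length with ENTPD4 on the same strand.

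The order of the libraries differed between members. CDK4WT replicate 4 was highest for 4 members (P4HA1, P4HA2, PLOD2 and LOX) and lowest for P3H1, and CDK4KO replicate 4 was lowest for 4 (P4HA1, PLOD1, LOX and LOXL2). CDK4KO replicate 1 was lowest for P4HA2, PLOD2 and PLOD3 and highest for PLOD1. Over 20 core hypoxia genes, a list that includes CA9 and VEGFA, the mean log2 CPM was also highest in CDK4WT replicate 4, at 7.70, and lowest in CDK4KO replicate 4, at 6.67, and CDK4WT (7.20 to 7.70) did not overlap CDK4KO (6.67 to 7.10). The top and bottom libraries of that list were thus those of P4HA1 and LOX, but the overlap between the genotypes was not shared.

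**Figure D4:**
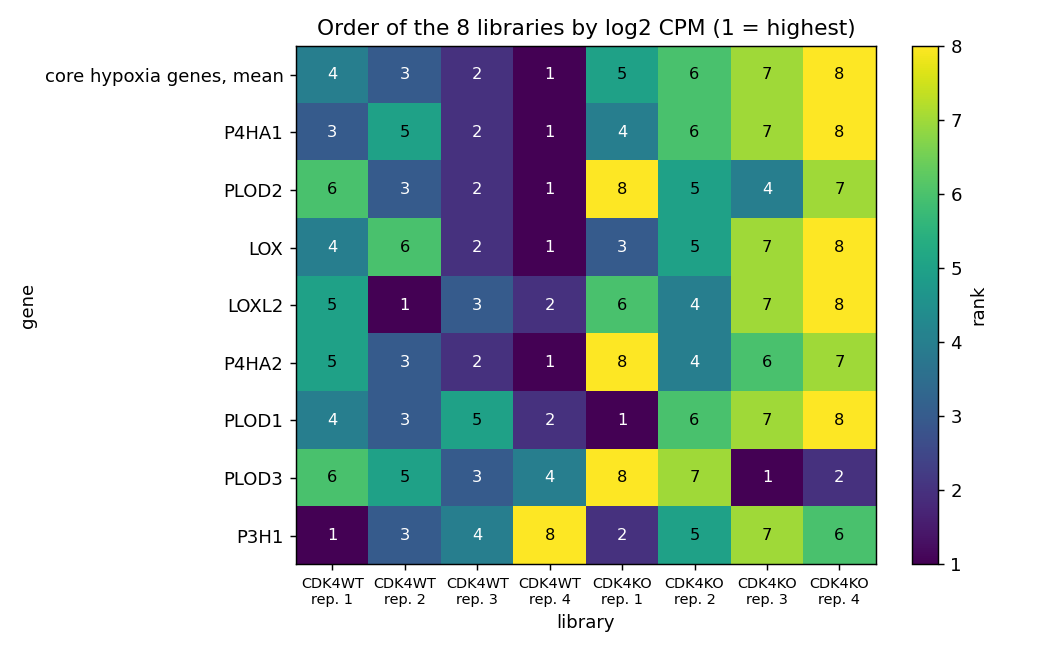
Rank of each library (columns, 1 = highest log2 CPM) for the mean of the 20 core hypoxia genes and for each member (rows). CDK4WT replicate 4 ranks 1 in the core hypoxia row and for P4HA1, PLOD2, LOX and P4HA2, and 8 for P3H1.

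All 20 core hypoxia genes had negative log2 fold changes, with a median of -0.52. None passed over all genes. At an unadjusted p of 0.05, 17 were lower, against 6.33% of all genes. The genotypes did not overlap in 10, all lower in CDK4KO, against 3.81% of all genes. ANKZF1, PFKFB4, PFKFB3 and CA9 had the smallest p, at log2 fold changes of -0.51 ± 0.08, -0.77 ± 0.13, -0.76 ± 0.13 and -1.26 ± 0.21 (SE; edgeR adjusted p 0.0508 to 0.0648). Each of P4HA1, PLOD2 and LOX had a fitted value closer to 0 than the list's median. That list was chosen with its direction in these tumours known and is no independent evidence of it.

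Genes that act beside the members in collagen folding and processing showed 0 of 29 past the test over all genes, with 22 negative and 7 positive log2 fold changes and a median of -0.04. At an unadjusted p of 0.05, 2 were lower and 0 higher, a share of 29 genes near the 6.33% of all genes that were lower. P3H2, a prolyl 3-hydroxylase and relative of P3H1, went from 12.2 CPM ± 0.46 to 8.09 CPM ± 1.42 (SD, 4 libraries each; fitted log2 fold change -0.60 ± 0.12, SE; edgeR adjusted p = 0.103), without overlap between genotypes. COLGALT2, a collagen galactosyltransferase, stood at -0.49 ± 0.15 (adjusted p = 0.233), and TMEM38B, an endoplasmic reticulum cation channel, at -0.17 ± 0.08. P4HA3, the remaining catalytic subunit of prolyl 4-hydroxylase, was low at 2.38 CPM ± 0.25 and 1.91 CPM ± 0.29 (-0.32 ± 0.17). The libraries of the genotypes did not overlap in 3 genes of this list (P3H2, COLGALT2 and P4HA3), all lower in CDK4KO, where 3.81% of all genes were lower without overlap.

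The collagen chains, substrates of these enzymes, had no common direction. Of 27 measured collagen chains 13 had positive and 14 negative log2 fold changes, with a median of -0.02, and 0 passed over all genes. At an unadjusted p of 0.05, 3 were higher and 5 lower, against 6.64% and 6.33% of all genes. COL6A2, a chain of microfibrillar collagen VI, stood at 1.41 ± 0.28 (SE; edgeR adjusted p = 0.118) and COL6A1 at 0.59 ± 0.15 (adjusted p = 0.173). COL17A1, a transmembrane collagen of hemidesmosomes, was at 0.51 ± 0.12 and COL16A1 at -0.38 ± 0.14. The other lower chains, named after their values were seen, were COL7A1 (-0.39), COL8A1 (-0.32), COL5A1 (-0.28) and COL4A2 (-0.28). Of the 9 measured stroma markers, 0 passed over all genes, and ACTA2, PDGFRB, FBLN1 and POSTN had log2 fold changes of 0.38 ± 0.17, 0.23 ± 0.16, -0.14 ± 0.13 and -0.21 ± 0.21.

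Among 11406 other genes with a mean log2 CPM of at least 2, the patterns most like those of the hypoxia-induced members over the 8 libraries were found by Pearson correlation of log2 CPM, as a description. For P4HA1 they were PIK3IP1 (r = 0.991), LOX (0.974) and NSA2 (0.973). For PLOD2 they were STAU1 (0.990), DUSP3 (0.979) and RASA3 (0.974), and for LOX they were FNBP4 (0.979), EIF3E (0.974) and RPL7 (0.974). RPL7 has many processed pseudogenes, so its count is uncertain. LOX was thus second in the list of P4HA1, and PLOD2 was in neither of the other lists. Spearman's rho was 0.738 for NSA2 with P4HA1 and 0.881 to 0.976 for the other 8. Without the 2 libraries farthest from the median of the member, r was 0.812 for NSA2, 0.802 for EIF3E, 0.855 for FNBP4 and 0.852 for RPL7, and 0.911 to 0.976 for the others, so some of these likenesses rest in part on 2 libraries. With 11406 genes and 8 libraries such values are picked from the top of a wide distribution. Likeness between members was not limited to the hypoxia-induced class. The paralogue P4HA2 had r of 0.904 with P4HA1 and 0.926 with PLOD2, while PLOD2 had 0.762 with P4HA1 and 0.647 with LOX. Median log2 fold changes of the 20 nearest tested genes on the chromosome lay between -0.04 and 0.04 for all 8 members.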

How the data were processed

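Per the labels, RNA was extracted from tumours with Trizol and made into mRNA libraries. The authors deposited raw counts per Ensembl gene. Per the submitters' processing notes, trimming used cutadapt, alignment STAR 2.7.11a on hg38 and counting featureCounts 2.0.4, and DESeq2 1.46.0 is also named. For the annotation release, the strand setting and mouse reads, nothing is stated in the sources used here. Columns numbered by library name were matched to CDK4KO replicates 1 to 4 through the labels.

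Symbols were found for 13524 of 13546 identifiers, and coordinates (GENCODE 29, hg38) for 13455. The comparison of genotypes used edgeR 4.0.16 under R 4.3.3 (TMM scaling, filterByExpr, which removed 0 genes, robust quasi-likelihood test, Benjamini-Hochberg over all genes, threshold 0.05). Log2 CPM used a prior count of 2. Ratios of 4 paralogue pairs were compared by exact two-sided permutation over 70 assignments. Intervals of members use the fit's SE. Library totals were 27840883 to 33617977 counts. For the 8 members, each with at least 1903 counts in every library, the spread between tumours, not counting, sets most of the error. For genes of low CPM in the context lists, such as P4HA3, counting also adds to it. Alternatives were DESeq2 1.42.0, limma 3.58.1 voom, other scalings and filters, a replicate block and each library left out. The steps were tested on simulated data.

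Members and lists were chosen with earlier results of these data known. Named genes are the members, CDK4, cell type markers and up to 4 genes of smallest p per context list. Also named are the other lower collagen chains and the 3 nearest patterns of P4HA1, PLOD2 and LOX. VEGFA was named only to describe its list. The partner list held 1 gene under 2 symbols, leaving 29 genes.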

Additional observations from a re-analysis of the deposited data

Results flagged for a closer look

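P3H1 in CDK4WT replicate 4 stood at 71.8 CPM, apart from the other CDK4WT libraries at 82.9 to 84.7 CPM, with a gap of 0.861 of the group's range, above Dixon's critical value for 4 samples. It was the 1 such value among 16 groups of 4 libraries searched (8 genes in 2 genotypes), where chance flags about 1 in 20 groups. The same library was the highest for P4HA1, P4HA2, PLOD2 and LOX.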

How the results depend on the processing

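The number of members called was 0 in every alternative, and the class difference kept its sign in all of them, from -0.160 to -0.0036 with 1 library left out. The number of all genes called went from 8 to 315 with DESeq2, 285 with limma voom and library quality weights, 14 with library size only, 13 with the replicate block and 447 without CDK4KO replicates 1 and 4 together (added after seeing the data), and from 0 to 183 with 1 library left out. At an unadjusted p of 0.05, 3 members were lower with voom and 3 with the block. The share of all genes at that p was not taken in these fits. Reversed signs were PLOD3 without CDK4KO replicate 1 (0.049, range -0.094 to 0.049 with 1 library left out) and without replicates 1 and 4 together (0.024), P4HA1 minus P4HA2 without CDK4KO replicate 4 (range -0.081 to 0.019) and PLOD2 minus PLOD1 without CDK4KO replicate 1 (range -0.213 to 0.102), and the cause was not tested. Same-numbered libraries deviated from their group means with correlations of -0.031, -0.014, 0.0035 and 0.194. Libraries of unlike number ranged from -0.198 (CDK4WT replicate 4, CDK4KO replicate 2) to 0.202 (CDK4WT replicate 3, CDK4KO replicate 2). The labels state no pairing, and so few correlations cannot decide whether there was any. The replicate block changed no member's call. Under the block the exact sign-flip p of the pairs were 0.875, 0.75, 0.375 and 0.125, where 4 pairs cannot pass. Depth limits none of the 8 members, each with at least 1903 counts in every library.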
